A study of Homo sapiens with 6 samples.

Results

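Brain region patterning factors are 37 genes, all but FGF8, FGF17 and SHH coding for transcription factors, chosen by symbol for the brain region that each marks in the embryo. Of the 37, 35 were among the 18056 genes of the deposited table, and EN1 and BARHL1 were not analysed here. They comprised 9 genes of the dorsal telencephalon (the future cortex), 4 of the ventral telencephalon, 3 of the rostral forebrain, 4 of the cortical hem and dorsal midline, 5 of the diencephalon and hypothalamus, 8 of the midbrain, isthmus and further caudal regions, and 2 of the ventral midline. They were measured by RNA sequencing in forebrain organoids, aggregates of neural tissue grown in culture, made from the human induced pluripotent stem cell line DYR0100 (genotype WT) with a dorsal forebrain protocol. The control group received vehicle and the other received 5 µM Aβ42, a peptide cut from the amyloid precursor protein that readily aggregates, for 6 days, with 3 libraries per group and all 6 labelled Batch1. The comparison asks which transcripts differ after exposure to the peptide. The series describes the replicates as independent, but all came from 1 cell line, and neither the age of the organoids nor the number pooled per library is given in the labels.

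During development, secreted signals divide the neural tube into territories, and each territory is held by its own combination of transcription factors. FGF proteins from the rostral rim of the forebrain, WNT and BMP proteins from the cortical hem at the dorsal midline, and sonic hedgehog (SHH) from the ventral midline pattern the telencephalon. FGF8 from the isthmus, the border of midbrain and hindbrain, maintains the engrailed and PAX factors there. In the cortex itself the factors are graded, with EMX2 and NR2F1 stronger caudally and FGF signals at the rostral pole.

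Libraries held 16465390 to 16742958 estimated counts. Of markers of the labelled tissue that are not among the 37, PAX6, the factor of cortical radial glia, stood at 105.0 to 118.0 TPM (transcripts relative to all transcripts of the library, scaled for gene length and library total) with vehicle and 104.2 to 111.2 TPM with Aβ42. TBR1, the factor of early cortical projection neurons, stood at 152.0 to 162.5 TPM and 131.6 to 138.8 TPM, and the summed microglial markers never exceeded 0.72 TPM. Summed markers of choroid plexus, the secretory epithelium next to the hem, reached 7553 TPM in vehicle replicate 2 and 6651 in Aβ42 replicate 2. The other libraries had 2836 to 3959 TPM. Nearly all of each sum was TTR, at 2805 to 7487 TPM, and no other marker of that list exceeded 37.6 TPM. Summed markers of cycling cells were 306 to 368 TPM with vehicle and 192 to 273 TPM with Aβ42, without overlap, and those of neurons were 3471 to 3757 TPM and 3242 to 3349 TPM. Aβ42 replicate 2 stood apart from the other Aβ42 libraries and was closer to every vehicle library than to either of them. Its squared count difference per gene, relative to counting noise, was 3.16, 7.70 and 4.58 to vehicle replicates 1 to 3. To Aβ42 replicates 1 and 3 it was 9.40 and 8.48. Vehicle replicate 2 and Aβ42 replicate 2 shared deviations from their groups (correlation 0.401 over 12186 genes). Values from a fit blocked by replicate number therefore follow where they changed a call. Correlations did not settle how the libraries numbered 1 and 3 pair.

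**Figure D1:**
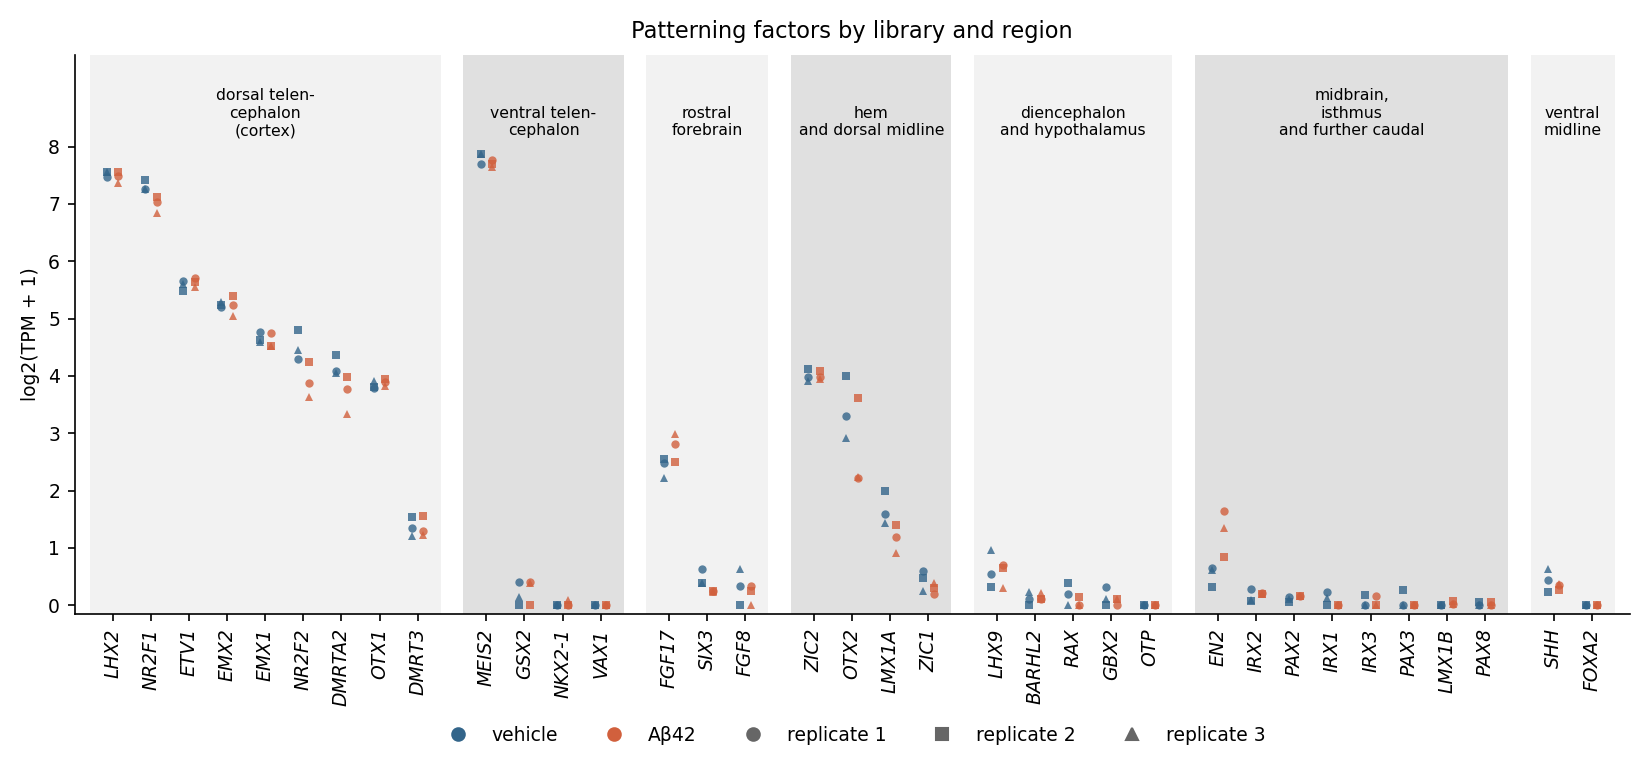
Level of each of the 35 listed patterning factors in every library (vertical axis, log2(TPM + 1)), grouped by brain region, with 1 point per library, colour for the group and marker shape for the replicate number. All 9 dorsal telencephalic genes exceed 1 TPM in every library, whereas none of the diencephalic, midbrain or ventral midline genes does.

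Of the 35 genes, 13 exceeded 1 TPM in every library, against 71.4% of all listed genes. These were 9 of 9 dorsal telencephalic genes, 1 of 4 ventral (MEIS2), 1 of 3 rostral (FGF17), 2 of 4 hem and midline genes (OTX2, ZIC2), and 0 of 5 diencephalic, 0 of 8 midbrain and caudal and 0 of 2 ventral midline genes. At the other end, 14 genes had at most 3 counts in every library. The plot of levels by region shows this step from cortical to other territories. In each Aβ42 library EN2 was the highest of the diencephalic, caudal and ventral midline genes.

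The fit without a block tested 17 of the 35 genes, those with enough counts, and 18 were too low. In edgeR's quasi-likelihood test with Benjamini-Hochberg adjustment, 0 of the 17 passed 0.05, as did 0% of the 13842 genes tested. At an unadjusted p under 0.05 there were 4 (23.5%; EN2, NR2F2, DMRTA2 and LMX1A), beside 23.9% of all genes. With the replicate block 6 of 17 passed (35.3%), beside 14.2% of all genes. Of these, NR2F1, NR2F2, DMRTA2, OTX2 and LMX1A were lower with Aβ42 (29.4%, beside 7.05% of all genes) and EN2 was higher (5.88%, beside 7.12%). DESeq2 called 1 (NR2F2), beside 5.88% of all genes. It gave no adjusted p for EN2, LMX1A, FGF17, DMRT3, ZIC1 and LHX9, so these could not be called by it. With quality weights, limma-voom called 3 (NR2F2, DMRTA2 and EN2), beside 18.4%. Without a filter, edgeR called 1 of 32 members tested (EN2), beside 2.07%. The blocked fit without both libraries numbered 2 called 5 of 18 members tested, the 6 above but for LMX1A, beside 14.7%. In counts per library total (CPM, the scale of the test) the groups did not overlap for 4 of the 17 (23.5%; DMRTA2 and NR2F2 lower, FGF17 and EN2 higher), beside 27.0% of all genes. Leaving out Aβ42 replicate 2 also gave 6 calls, now of 18 genes tested (33.3%, beside 23.1%), with EMX1 in place of OTX2. The median log2 fold change of the 17 was -0.02, beside 0.003 for all genes, and the median absolute value was 0.15, beside 0.12.

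**Figure D2:**
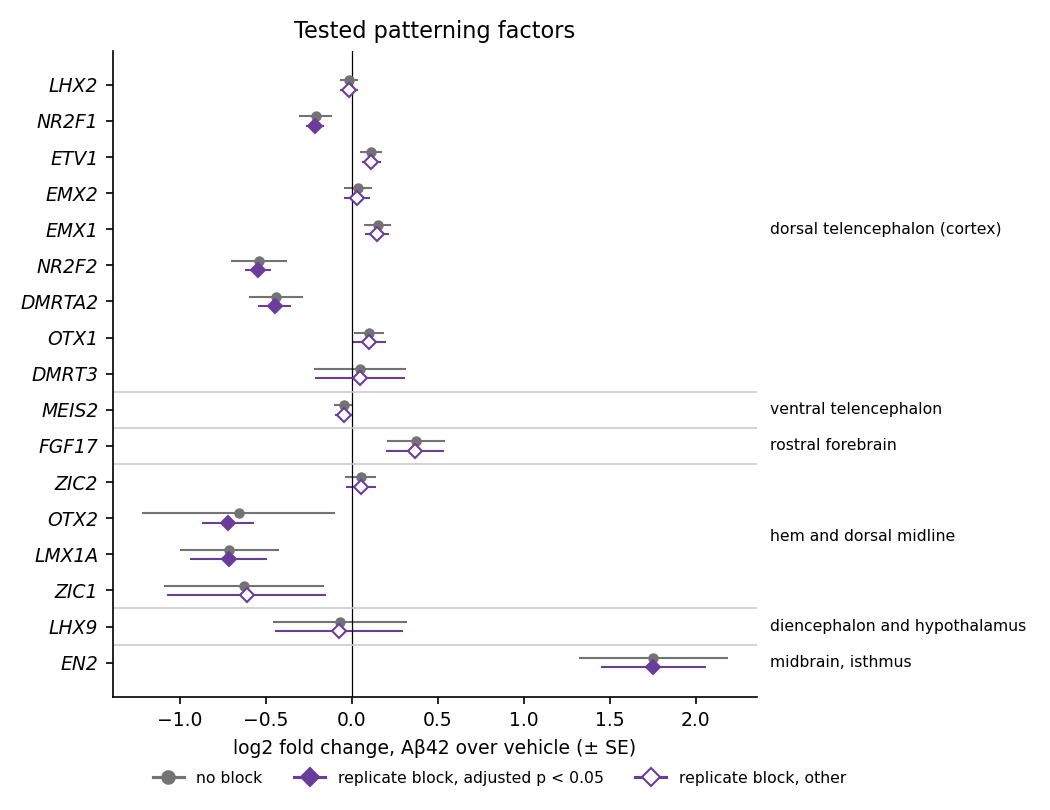
Log2 fold change (Aβ42 over vehicle) with its standard error for the 17 tested patterning factors, grouped by region, from edgeR's quasi-likelihood fit without and with the replicate block. EN2 (1.75) lies farthest to the higher side and LMX1A (-0.71), OTX2 (-0.66), ZIC1 (-0.63) and NR2F2 (-0.54) farthest to the lower side, and the block moves the values little.

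Promoter sequences are shown for 4 of the 6 genes that passed with the block, to show the start regions of genes that passed under the same treatment. They come from RefSeq (GRCh38.p14), 250 bases before to 50 bases after the start, for NR2F1 (chr5:93582972-93583271, plus strand), DMRTA2 (chr1:50423394-50423693, minus strand), OTX2 (chr14:56810430-56810729, minus strand) and EN2 (chr7:155457879-155458178, plus strand). Of the 37 genes 29 were matched to a window; EMX1, SIX3, FGF8, FGF17, BARHL1, EN1, IRX3 and FOXA2 were not. Capitals mark matches to CCAAT (the NF-Y box), CTTTGAT (TCF/LEF, the effectors of WNT signals), TAATTA (homeodomain core), TAATCC (OTX core) and AGGTCA (nuclear receptor site) on either strand, none of which overlapped another here.
NR2F1: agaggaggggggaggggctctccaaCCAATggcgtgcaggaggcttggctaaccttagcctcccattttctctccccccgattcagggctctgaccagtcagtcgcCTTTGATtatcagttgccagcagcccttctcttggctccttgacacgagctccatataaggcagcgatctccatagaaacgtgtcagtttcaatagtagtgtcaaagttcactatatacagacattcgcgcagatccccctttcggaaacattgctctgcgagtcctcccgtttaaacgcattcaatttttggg
DMRTA2: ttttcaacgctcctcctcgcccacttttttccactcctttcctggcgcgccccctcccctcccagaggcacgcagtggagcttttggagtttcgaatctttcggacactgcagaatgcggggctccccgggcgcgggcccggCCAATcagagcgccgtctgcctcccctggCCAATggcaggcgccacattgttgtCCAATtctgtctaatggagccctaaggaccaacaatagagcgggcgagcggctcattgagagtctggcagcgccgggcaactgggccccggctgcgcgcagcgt
OTX2: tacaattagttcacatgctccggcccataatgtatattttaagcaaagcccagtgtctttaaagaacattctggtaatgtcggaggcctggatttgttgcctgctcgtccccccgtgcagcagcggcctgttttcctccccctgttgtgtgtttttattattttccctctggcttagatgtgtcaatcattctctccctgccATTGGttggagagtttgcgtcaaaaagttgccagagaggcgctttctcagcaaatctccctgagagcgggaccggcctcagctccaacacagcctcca
EN2: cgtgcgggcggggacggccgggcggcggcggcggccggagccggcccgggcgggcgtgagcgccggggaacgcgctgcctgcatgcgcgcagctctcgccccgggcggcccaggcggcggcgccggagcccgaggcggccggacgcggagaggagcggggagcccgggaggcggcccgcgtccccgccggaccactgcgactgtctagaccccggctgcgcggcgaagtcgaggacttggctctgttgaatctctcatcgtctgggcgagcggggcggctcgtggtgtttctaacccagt

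NR2F1 and OTX2 each have a second window, which is not shown. The NR2F1 window shown holds 1 CTTTGAT, a motif found in 2.63% of 34943 RefSeq windows of this length, and 1 CCAAT, found in 34.6%. Its second window, 3877 bases further on, also holds 1 CTTTGAT match. Of the 29 matched members 2 hold this motif, and NR2F2 and LMX1A, which passed but are not shown, hold none. The DMRTA2 window holds 3 CCAAT and the OTX2 window shown 1, here read from the opposite strand as ATTGG. The EN2 window has none of the 5 motifs and is the richest in G and C, at 78.0% against 63.3% for DMRTA2. These matches are descriptions of the sequence only.

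Among the dorsal telencephalic genes, NR2F1, NR2F2 and DMRTA2 were lower with Aβ42, while LHX2, EMX1, EMX2, OTX1, DMRT3 and ETV1 passed in neither fit. NR2F1 and NR2F2 (COUP-TFI and COUP-TFII) are orphan nuclear receptors that shape the caudal and ventral cortical territories and the interneurons migrating into them. NR2F2 stood at 18.7, 27.0 and 20.9 TPM in vehicle replicates 1 to 3 and at 13.6, 18.0 and 11.5 TPM in Aβ42 replicates 1 to 3. Every Aβ42 library lay below every vehicle library, and Aβ42 replicate 2 came closest to the vehicle range. The log2 fold change was -0.54 ± 0.16 (SE), with an adjusted p of 0.115 in edgeR's quasi-likelihood test, 3.25e-04 with the replicate block and 0.0068 without Aβ42 replicate 2. In such bulk RNA, fewer cells of a type and less RNA per cell cannot be told apart.

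NR2F1 stood at 151.6, 169.2 and 152.0 TPM with vehicle and 129.9, 138.3 and 113.4 TPM with Aβ42. In TPM the groups did not overlap, but in CPM Aβ42 replicate 2 exceeded vehicle replicates 1 and 3. Its log2 fold change was -0.21 ± 0.10, with an adjusted p of 0.221 in edgeR's test, 0.0135 with the block and 0.039 without Aβ42 replicate 2. In each library NR2F1 was the more abundant of the pair. The ratio of NR2F1 to NR2F2 TPM was 7.22 ± 0.93 (SD, n = 3) with vehicle and 9.04 ± 1.20 with Aβ42, with overlapping libraries. The NR2F1 locus also carries the antisense gene NR2F1-AS1, whose exons overlap it, and whether counting used strand is not given in the sources used here.

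DMRTA2 (DMRT5), a zinc finger factor of the DM class that acts downstream of hem signals in caudomedial cortical progenitors, had 16.0, 19.6 and 15.5 TPM with vehicle and 12.7, 14.7 and 9.06 TPM with Aβ42. The groups did not overlap, and Aβ42 replicate 3 was the lowest of all. Its log2 fold change was -0.44 ± 0.16, with an adjusted p of 0.143 in edgeR's test, 0.0056 with the block and 0.0188 without Aβ42 replicate 2. DMRT3, its paralogue in the same progenitors, overlapped between groups, at 1.53, 1.92 and 1.30 TPM with vehicle and 1.46, 1.95 and 1.34 TPM with Aβ42. The ratio of DMRTA2 to DMRT3 TPM was 10.5, 10.2 and 11.95 with vehicle and 8.69, 7.54 and 6.76 with Aβ42, without overlap. DMRT3 had only 19 to 30 counts per library, for which counting error alone is 20.7%, so the ratio is imprecise. The summed markers of cycling cells moved the same way as NR2F2, NR2F1 and DMRTA2. Of these 5 markers, 5 passed lower with the block, beside 7.05% of all genes, and 0 passed without it. The part of cycling cells in the lower NR2F2, NR2F1 and DMRTA2 was not tested.

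**Figure D3:**
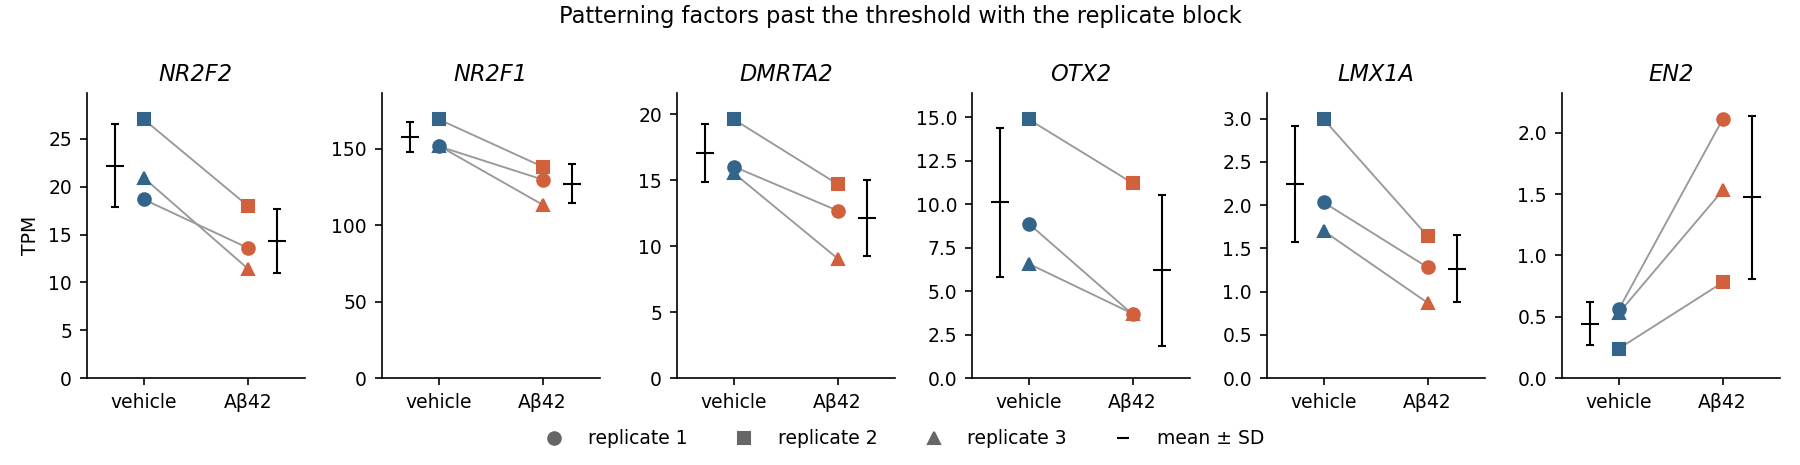
TPM in each library (marker shape by replicate number, mean ± SD beside) for the 6 patterning factors past an adjusted p of 0.05 with the replicate block, with lines joining libraries of the same number. OTX2 alone overlaps between groups in TPM, and along each line EN2 is higher and the other genes are lower with Aβ42.

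The other 6 dorsal genes did not pass the test without a block or with it. LHX2, the LIM homeodomain factor that selects cortical over hem fate, was the most abundant dorsal member and stood at 177, 188 and 187 TPM with vehicle and 179, 187 and 164 TPM with Aβ42 (log2 fold change -0.02 ± 0.05). EMX2, the homeodomain factor of the caudomedial cortex, had 36.0, 36.7 and 37.9 TPM with vehicle and 36.9, 40.9 and 32.0 TPM with Aβ42 (0.03 ± 0.08). For both genes the groups overlapped and Aβ42 replicate 3 was the lowest library. ETV1 (log2 fold change 0.11 ± 0.06), an ETS factor of FGF-responsive rostral cortex and of deep-layer neurons, ranged from 43.9 to 49.6 TPM with vehicle and from 46.0 to 51.6 TPM with Aβ42.

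OTX1, an orthodenticle factor of cortical progenitors and deep-layer neurons, had the smallest ratio of highest to lowest library of the 13 genes above 1 TPM (1.12), from 12.8 to 14.3 TPM. EMX1 stood at 26.2, 23.7 and 23.1 TPM with vehicle and 26.0, 21.9 and 22.0 TPM with Aβ42. On counts it was 0.15 ± 0.08 higher (log2), but on log2(TPM + 1) it was 0.06 lower, so its direction depends on the unit. The count per TPM of EMX1 shifted by 0.17 (log2) between groups, as far as or farther than for all but 1.13% of 12889 genes, and exons of an opposite-strand gene overlap it.

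Of 10 further cortical genes, 1 was higher with Aβ42 and 3 were lower in the blocked fit, beside 7.12% and 7.05% of all genes, and 0 passed without the block. PAX6 had a log2 fold change of 0.03 (adjusted p 0.782 in edgeR's test). FEZF2, a selector of subcortical projection neurons, was the higher gene (0.34, adjusted p 0.265 in edgeR's test and 0.0056 with the block). Its groups overlapped, as Aβ42 replicate 2 (49.96 TPM) lay below vehicle replicates 1 and 3 (53.89 and 52.68 TPM). EOMES, the marker of intermediate progenitors, was lower (-0.83, adjusted p 0.0779 in edgeR's test and 2.44e-06 with the block). TBR1, the transcription factor of early deep-layer neurons, was lower (-0.18, adjusted p 0.0734 in edgeR's test and 0.0203 with the block), and so was TFAP2C, an AP-2 factor of basal progenitors (-0.40, adjusted p 0.0734 and 0.0034).

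Ventral telencephalic members were represented by MEIS2 alone. MEIS2, a TALE homeodomain factor of the striatal anlage that cortical cells also express, stood at 207, 233 and 233 TPM with vehicle and 216, 208 and 199 TPM with Aβ42. The groups overlapped, and the log2 fold change was -0.05 ± 0.05, with an adjusted p of 0.611 in edgeR's test. MEIS2 made up at least 99.8% of the summed TPM of the 4 ventral genes in every library. VAX1, a homeodomain factor of the ventral forebrain and optic stalk, had 0 counts in all libraries, which allows up to 0.179 to 0.182 CPM at a limit of 3 counts per library. NKX2-1, which specifies the medial ganglionic eminence, reached 1 count in a library, and GSX2, which specifies the lateral ganglionic eminence, reached 3.

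Rostral members differed in abundance. FGF17, a ligand of the rostral patterning centre, was the only one tested, with 4.61, 4.86 and 3.63 TPM with vehicle and 6.06, 4.63 and 6.90 TPM with Aβ42. In TPM, Aβ42 replicate 2 fell inside the vehicle range, although in CPM the groups did not overlap. Its log2 fold change was 0.37 ± 0.17, with an adjusted p of 0.210 in edgeR's test and 0.159 with the block. FGF8, the principal ligand of this centre, never exceeded 2 counts in a library. SIX3, a homeodomain factor of the rostral forebrain and eye field, had 9, 5 and 5 counts with vehicle and 3, 3 and 3 with Aβ42, so it was lower in each Aβ42 library but too low for the filter; without a filter its log2 fold change was -1.06 ± 0.58 (adjusted p 0.321 in edgeR's test).

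Of 11 genes that receive FGF signals or are induced by them, 1 was higher and 1 lower in the blocked fit, a share close to the 14.2% of all genes called there, and 0 passed without it. DUSP6, a phosphatase that damps ERK signalling, was higher (0.32, adjusted p 0.148 in edgeR's test and 0.0452 with the block), and FGFR2 was lower (-0.21, adjusted p 0.0191 with the block). The ETS factor ETV4 did not pass (0.30, adjusted p 0.193 and 0.136).

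Among hem and dorsal midline members, OTX2 and LMX1A were lower with Aβ42 within every replicate number. LMX1A, a LIM homeodomain factor that specifies the hem and the roof plate, stood at 2.03, 2.99 and 1.70 TPM with vehicle and 1.28, 1.64 and 0.87 TPM with Aβ42. OTX2, a homeodomain factor of choroid plexus, midbrain and retina, stood at 8.89, 14.9 and 6.58 TPM with vehicle and 3.67, 11.2 and 3.71 TPM with Aβ42. In each group the library numbered 2 was the highest for both genes. OTX2 overlapped between groups, through Aβ42 replicate 2, and LMX1A separated them narrowly in TPM but overlapped in CPM.

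For OTX2 the spread between libraries was the widest of the tested members above 1 TPM, at 42.4% of the mean with vehicle and 70.1% with Aβ42. Its log2 fold change of -0.66 ± 0.56 had an adjusted p of 0.519 in edgeR's test and 0.0061 with the block. Without both libraries numbered 2, the blocked fit gave an adjusted p of 0.0022. LMX1A had a log2 fold change of -0.71 ± 0.29, with an adjusted p of 0.169 in edgeR's test and 0.0433 with the block, but 0.0996 in the blocked fit without the libraries numbered 2. Without Aβ42 replicate 2 and without a block it was 0.0354.

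The libraries with the highest OTX2 also had the highest sum of choroid plexus markers. The summed level of those markers was 3338, 7553 and 3959 TPM with vehicle and 3640, 6651 and 2836 TPM with Aβ42, highest in the libraries numbered 2 in both groups. TTR, the thyroid hormone carrier, made up nearly all of the sum, with 7487 TPM in vehicle replicate 2, so the sum in effect follows TTR. Of the 5 markers tested, CLIC6 passed lower with the block, while TTR did not (log2 fold change -0.09 ± 0.49, adjusted p 0.927 in edgeR's test and 0.617 with the block). AQP1 went the other way (0.59 ± 0.57, adjusted p 0.571 in edgeR's test), and its highest vehicle library was replicate 1. KCNE2, at 2 to 10 counts per library and too low for the filter, was higher in each Aβ42 library than in any vehicle library. The part of choroid plexus content in the lower OTX2 and LMX1A was not tested.

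**Figure D4:**
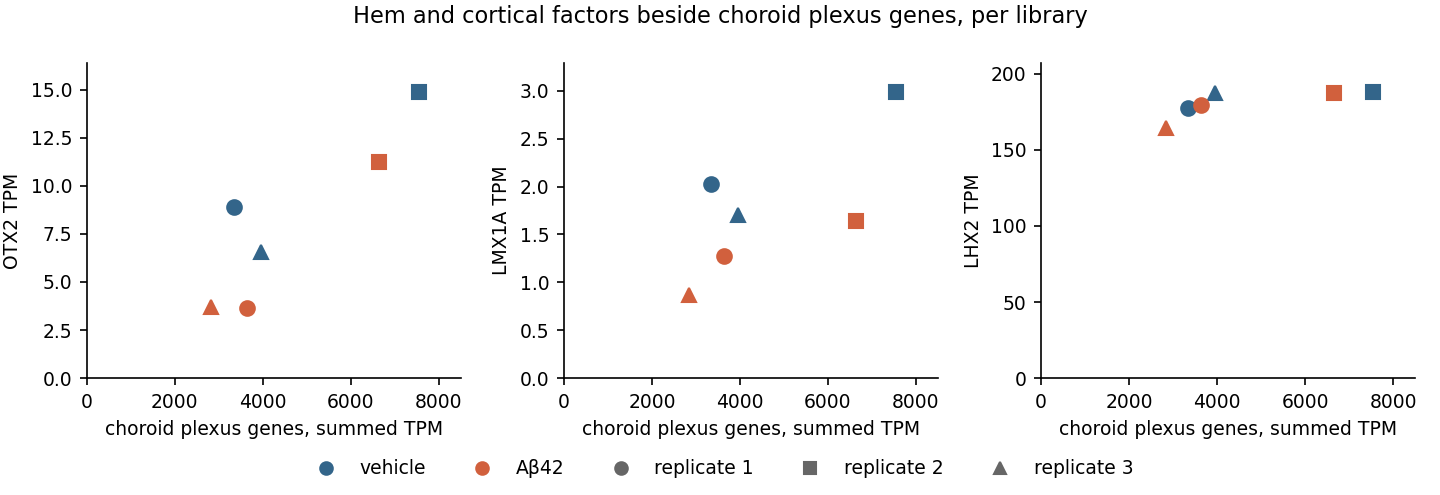
Level of OTX2, LMX1A and LHX2 (TPM, vertical axes from 0) against the summed TPM of 6 choroid plexus markers (horizontal axis), nearly all of it TTR. Each library is 1 point, with colour for the group and marker shape for the replicate number. Within each group OTX2 and LMX1A are highest in the library numbered 2, where the choroid plexus sum is highest, while LHX2 stays between 164 and 188 TPM.

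ZIC2, a zinc finger factor of the dorsal midline and of the cortical margin, was the most abundant hem member, with 14.7, 16.4 and 14.0 TPM with vehicle and 14.9, 16.0 and 14.4 TPM with Aβ42. Its paralogue ZIC1 was under 1 TPM everywhere (log2 fold change -0.63 ± 0.46, adjusted p 0.425 in edgeR's test), with exons that overlap ZIC4 on the opposite strand. ZIC2 overlapped between groups, and neither ZIC gene passed in either fit.

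Of 11 tested genes of hem signalling (WNT, BMP and R-spondin ligands and MSX factors), 4 were lower with the block (WNT5A, WNT8B, RSPO2 and RSPO3) and BMP7 was higher, beside 7.05% and 7.12% of all genes, while 0 passed without the block. WNT5A, a WNT ligand, stood at 1.73, 2.35 and 1.31 TPM with vehicle and 0.58, 1.05 and 0.53 TPM with Aβ42, and its groups did not overlap (log2 fold change -1.31 ± 0.30, adjusted p 0.0734 in edgeR's test and 7.61e-04 with the block). WNT8B, another WNT ligand of this list, stood at 6.49, 6.89 and 6.11 TPM with vehicle and 2.21, 4.88 and 2.28 TPM with Aβ42 (adjusted p 0.0049 with the block). BMP7 differed by 0.29 (adjusted p 0.0684 and 0.0025).

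**Figure D5:**
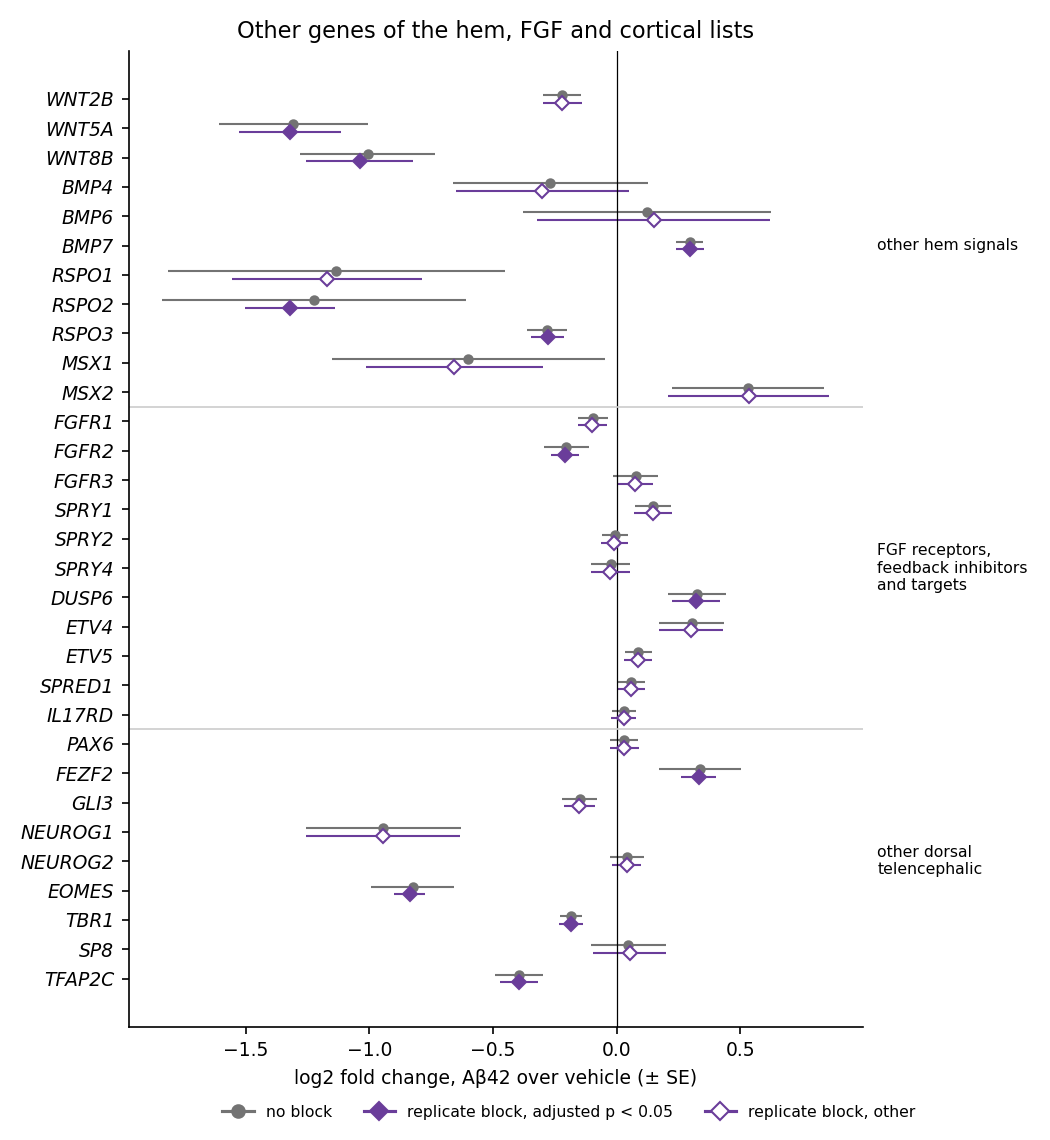
Log2 fold change (Aβ42 over vehicle) with its standard error for further genes of the hem, FGF and cortical lists, from edgeR's fit without a block (circles) and with the replicate block (diamonds, filled past an adjusted p of 0.05). WNT5A (-1.31) lies lowest without the block, and the FGF genes lie between -0.20 (FGFR2) and 0.32 (DUSP6).

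Diencephalic and hypothalamic members were close to the detection limit. LHX9, a LIM homeodomain factor of the thalamus and of early cortical neurons, ranged from 0.25 to 0.95 TPM with vehicle and from 0.23 to 0.62 TPM with Aβ42 (log2 fold change -0.07 ± 0.39). BARHL2, a factor of the caudal diencephalon, reached 2 counts in a library and GBX2, a thalamic homeodomain factor, reached 3. RAX, the retina and hypothalamus factor, had 3, 6 and 0 counts with vehicle and 0, 2 and 0 with Aβ42, and OTP, which specifies hypothalamic neurons, had 0 in all. TCF7L2, a WNT effector high in the thalamus but expressed widely, stood at 9.13 to 9.47 TPM with vehicle and 9.35 to 10.6 TPM with Aβ42 (log2 fold change 0.16 ± 0.09, adjusted p 0.292 in edgeR's test).

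Midbrain and more caudal members were lower still, with EN2 as the exception. EN2, the engrailed homeodomain factor of the midbrain and cerebellar territory, had 12, 5 and 11 counts with vehicle and 45, 17 and 34 counts with Aβ42, or 0.56, 0.24 and 0.53 TPM against 2.11, 0.78 and 1.53 TPM. Every Aβ42 library was above every vehicle library, and Aβ42 replicate 2 was the nearest to them. Its log2 fold change was 1.75 ± 0.43, with an adjusted p of 0.0734 in edgeR's quasi-likelihood test, 0.0015 with the block, 0.0474 without a filter on low counts and 0.0019 without Aβ42 replicate 2. It reached the filter level of 0.604 CPM in 2 vehicle and 3 Aβ42 libraries, so it was tested largely through the group in which it was higher.

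No other caudal member was high enough to test. PAX2, PAX3 and PAX8, paired-box factors of the isthmus, dorsal neural tube and midbrain-hindbrain border, reached at most 3, 1 and 1 counts in a library. LMX1B, a LIM homeodomain factor of the isthmus and of midbrain dopamine neurons, had 0 counts in the vehicle libraries and 1, 2 and 1 with Aβ42. IRX1, IRX2 and IRX3, Iroquois factors of regions caudal to the telencephalon, reached 2, 4 and 2. In edgeR's fit without a filter the adjusted p was 0.253 for LMX1B, 0.703 for PAX2, 0.850 for FGF8 and 0.997 for PAX8. With at most 3 counts per library in each of these genes, differences of moderate size were not detectable at this depth. Of 2 other midbrain and hindbrain genes tested, 0 passed in either fit.

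FOXD1, a forkhead factor of the ventral diencephalon and temporal retina, was 1 of 2 other diencephalic genes tested and had its libraries in the same order as EN2 within each group, with 11, 8 and 9 counts with vehicle and 33, 11 and 27 with Aβ42. Its log2 fold change was 1.32 ± 0.42, with an adjusted p of 0.114 in edgeR's test and 0.0189 with the block. FOXD1 reached the filter level in 1 vehicle and 3 Aβ42 libraries, so it too was tested through the group in which it was higher.

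Ventral midline members were nearly silent. FOXA2, the forkhead factor of the floor plate, had 0 counts in all 6 libraries, and SHH, the ligand made there, had 11, 5 and 10 counts with vehicle and 8, 6 and 9 with Aβ42, which overlapped.

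Summed by region, the dorsal telencephalic members had 504.0 ± 17.3 TPM with vehicle and 454.7 ± 38.0 TPM with Aβ42 (SD, n = 3), and the ventral members 224.5 ± 14.7 and 207.8 ± 8.24 TPM. The dorsal sums did not overlap in TPM, but they did in CPM, at 526.7, 558.2 and 528.0 with vehicle and 521.3, 540.9 and 469.1 with Aβ42. Hem and midline members summed to 27.8 ± 6.24 and 22.8 ± 5.46 TPM, diencephalic members to 0.893 and 0.667 TPM, and midbrain and caudal members to 0.837 ± 0.187 and 1.83 ± 0.695 TPM. EN2 made up 34.3% to 69.7% of the last sum with vehicle and 68.4% to 84.1% with Aβ42. The telencephalic sum thus stood above that of the hem, diencephalic, midbrain and ventral midline members by 4.61, 4.39 and 4.87 log2 units in vehicle replicates 1 to 3 and by 4.86, 4.47 and 4.81 in Aβ42 replicates 1 to 3. The mean difference between groups was 0.09 log2 units, smaller than the SD between vehicle libraries (0.24) and between Aβ42 libraries (0.21), and the groups overlapped. Within replicate numbers, Aβ42 was higher in numbers 1 and 2 and lower in number 3. Without MEIS2 and ZIC2, the most abundant on each side, the difference was 0.38, with 5.15, 4.73 and 5.51 log2 units with vehicle and 5.76, 4.99 and 5.79 with Aβ42. On that measure the groups still overlapped, but Aβ42 was higher within each of the 3 numbers, and the difference was not tested. Other scores did not show this. Without the members expressed in both kinds of region (OTX1, OTX2, NR2F1, NR2F2, LHX9, ZIC1, ZIC2 and MEIS2) the difference was 0.04. Aβ42 was then lower within numbers 1 and 3. For the mean of log2(TPM + 1) over members the difference was -0.06, with Aβ42 lower within numbers 2 and 3.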

How the data were processed

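Polyadenylated RNA of 3 vehicle and 3 Aβ42 libraries was sequenced with a stranded kit, per the labels' protocols. The submitters' processing notes name FastQC, STAR 2.7.11b, featureCounts 2.0.6 and GRCh38. The annotation is not given in the sources used here. The authors deposited read counts and TPM, which they scaled for gene length and library total. Not all of the counts were whole, so the values deposited by the authors were taken as estimated counts and rounded. Reads shared with overlapping or near-identical genes could be divided or dropped, and of the 17 tested members 7 have exons that overlap a gene on the opposite strand.

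Genes were kept by filterByExpr, scaled by TMM and compared with the robust quasi-likelihood test of edgeR 4.0.16 in R 4.3.3, without a block, two-sided, with Benjamini-Hochberg adjustment over 13842 genes and a threshold of 0.05. Standard errors were derived from the fold change and the quasi-likelihood F statistic. Alternatives were RLE scaling, no filter, DESeq2 1.42.0, limma 3.58.1 (voom, voom with quality weights, and log2(TPM + 1) or log2(TPM + 0.1)), the replicate block, and leaving out each library. The fit was tested on simulated data. Libraries were checked for duplicates and none were found. Same-numbered libraries correlated at 0.182, 0.401 and 0.127 in their deviations from group means over 12186 genes. As all exceeded 0.1, pairing by number was accepted, from the data alone. However, vehicle replicate 1 with Aβ42 replicate 3 (0.172) and vehicle replicate 3 with Aβ42 replicate 1 (0.179) also exceeded 0.1. Vehicle replicate 3 thus correlated more highly with Aβ42 replicate 1 than with Aβ42 replicate 3. The rule therefore could not tell how the libraries numbered 1 and 3 pair. Results with the replicate block rest on pairing them by number.

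Total counts were 16465390 to 16742958 per library and the biological coefficient of variation was 6.75%. Limits and spreads do not cover amplification, as no molecular identifiers are mentioned. All 37 members are given. Of other genes, PAX6, TCF7L2, TTR and the 2 with the smallest p in each list are named by rule. Further genes past the threshold with the block, and single cell-type markers, were named after their values were seen. The members and lists were chosen with earlier results of these data known. Results of some other genes are not reported here.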

Additional observations from a re-analysis of the deposited data

How the results depend on the processing

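The count of genes past the threshold was 0 without a block, 360 without a filter on low counts, 814 with DESeq2, 1962 with the replicate block, 2035 when the block was used and both libraries numbered 2 were left out, 2543 with limma-voom and quality weights, and 0 to 3224 when each library was left out (3224 without Aβ42 replicate 2). For the patterning factors the counts were 0, 1, 1, 6, 5, 3 and 0 to 6. The difference between telencephalic and other-region sums was 0.09, and 0.38 without the most abundant member of each side. It was 0.04 without the members expressed in both kinds of region, and -0.03 to 0.21 when each library was left out. For the mean of log2(TPM + 1) over members it was -0.06. Of the 17 tested members, 12 kept their sign over 15 alternatives and 5 did not. EMX1 was -0.0607 on log2(TPM + 1) and -0.0631 on log2(TPM + 0.1). EMX2 was -0.0318 with quality weights, -0.0189 and -0.0195 on those scales, -0.0583 with the block and without the libraries numbered 2, and -0.046 to 0.11 when each library was left out. LHX2 was -0.0506 to 0.0244 and LHX9 -0.41 to 0.22 when each library was left out. DMRT3 was -0.0007 with quality weights, -0.0003 and -0.0005 with TPM, and -0.12 to 0.20 when each library was left out. The cause of these changes was not tested. NR2F2, DMRTA2, NR2F1, LMX1A, OTX2, FGF17, EN2 OTX1, ETV1, MEIS2, ZIC2 and ZIC1 kept their direction throughout. EN2 (at most 45 counts per library), DMRT3 (30), ZIC1 (18), SHH (11) and SIX3 (9) are limited by counting error as well.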

Other observations

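The ventral members NKX2-1 and GSX2 were not above a few counts. Of 12 other genes of the ventral telencephalon, 4 exceeded 1 TPM in every library. GSX1, LHX8 and ISL1 had 0 counts in all libraries, and DLX6, LHX6 and SP9 reached at most 10, 7 and 6 counts in a library. Of 12 such genes 6 were tested, 5 had a positive log2 fold change and 0 passed in either fit of edgeR's quasi-likelihood test. DLX2 (0.64, adjusted p 0.413) and DLX5 (0.45, adjusted p 0.454), homeodomain factors of developing interneurons, had the smallest p-values. The summed level of the 12 genes was 35.0 to 45.8 TPM with vehicle and 36.5 to 50.6 TPM with Aβ42, so the groups overlapped.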
